A study of Mus musculus with 16 samples.

Results

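The monoaminergic and cholinergic neuron genes examined here were the 10 genes Th, Ddc, Dbh, Slc6a3, Slc18a2, Tph2, Slc6a4, Chat, Slc18a3 and Slc5a7, chosen by gene symbol. All 10 were found among the 21878 mRNAs of the count and FPKM tables, and all 10 were among the 17885 mRNAs tested. RNA-seq was performed on CD11b+/CD45int microglia sorted from the brains of 16 female wild-type C57BL/6 mice, with 1 library per mouse. The age given for the mice is 8 weeks, and the methods do not say whether this was at the first injection or at sampling. The EAE group (n = 8) had experimental autoimmune encephalomyelitis, a mouse model of multiple sclerosis, and was taken at the peak of disease. It had been immunized with the myelin oligodendrocyte glycoprotein peptide MOG35-55 in complete Freund's adjuvant and given pertussis toxin, and the PBS group (n = 8) received PBS injections in place of these agents. In the treatment field of the labels the last residue of the peptide runs from 55 in EAE 1 to 62 in EAE 8, whereas the protocol in the same labels names residues 35 to 55 for all EAE mice. EAE mice therefore differed from PBS-treated mice in peptide, adjuvant and toxin together.

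Monoaminergic neurons make dopamine, noradrenaline or serotonin, and cholinergic neurons make acetylcholine. Each type is defined by the enzyme that makes its transmitter, a vesicular transporter that loads it into synaptic vesicles and a plasma membrane transporter that takes the transmitter, or its precursor choline, back up. In the brain the cell bodies lie in certain regions, such as the substantia nigra for dopamine, the raphe for serotonin, the locus coeruleus for noradrenaline, and the striatum and basal forebrain for acetylcholine. Microglia are the resident macrophages of the brain and are not known for making these transmitters.

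The label of the libraries was checked against marker genes of cell types. The 17 microglia markers were all detected, with a mean of 17.4 FPKM per gene, and C1qb, a subunit of complement C1q, was the highest of them with a mean of 66.1 FPKM in EAE mice and 59.1 FPKM in PBS-treated mice. The 14 neuron markers had a mean of 90.8 FPKM per gene, and the 8 astrocyte and the 8 oligodendrocyte markers each had a mean of 134 FPKM per gene. Neuron, astrocyte and oligodendrocyte RNA was thus more abundant per gene than microglia marker RNA in libraries labelled as microglia. In such bulk libraries, fewer cells of a type and less RNA per cell cannot be told apart. Total counts were 24587443 to 34184576 per library, and Dbh, with 8.5 counts at the median, was the gene with the largest counting error. The libraries fell on either side of a gap in the number of mRNAs detected, with 17405 to 17644 in EAE 1 to 4 and PBS 1 to 4 and 17831 to 18042 in EAE 5 to 8 and PBS 5 to 8. The labels name no batch, and total counts did not follow this gap. EAE 6, 7 and 8 and PBS 5, 7 and 8 were also more alike within their group than other libraries, with a spread of 3.12 to 4.03 times counting noise against 6.07 to 24.5 times for the other pairs of a group. Results are given below with and without these sets where they change a call. PBS 6 had the lowest Th, Slc6a3 and Chat values and the highest Slc18a2, Tph2 and Slc6a4 values of the PBS group.

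The promoters of Th, Slc6a3, Slc18a2 and Tph2 are shown because the first 3 genes are used together in dopamine neurons, and because the window of Tph2 held the most motifs of those searched. The sequences are from RefSeq on GRCm38.p6, from 250 bases before to 50 bases after a RefSeq transcript start, in the direction of the gene. The gene positions given further below are from GENCODE, and for Th the gene start there lies outside this window. All 10 genes had an entry. In Th and Slc18a2 the capitals TGACGTCA mark the cAMP response element, and in Slc6a3, Slc18a2 and Tph2 the capitals GGACAG, or CTGTCC on the other strand, mark the right part of RE1, the element bound by the repressor REST. In Tph2 the capitals also mark the TATA box TATAAA and the left part of RE1, TCAGCACC. The windows were chr7:142899946-142900245 for Th on the minus strand, chr13:73536497-73536796 for Slc6a3 on the plus strand, chr19:59260628-59260927 for Slc18a2 on the plus strand and chr10:115184973-115185272 for Tph2 on the minus strand.
Th: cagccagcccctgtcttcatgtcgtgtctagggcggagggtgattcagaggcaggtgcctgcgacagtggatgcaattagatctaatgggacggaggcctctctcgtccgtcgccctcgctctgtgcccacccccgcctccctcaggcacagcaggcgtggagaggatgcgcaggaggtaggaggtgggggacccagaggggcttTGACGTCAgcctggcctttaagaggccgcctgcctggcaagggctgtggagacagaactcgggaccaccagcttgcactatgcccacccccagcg
Slc6a3: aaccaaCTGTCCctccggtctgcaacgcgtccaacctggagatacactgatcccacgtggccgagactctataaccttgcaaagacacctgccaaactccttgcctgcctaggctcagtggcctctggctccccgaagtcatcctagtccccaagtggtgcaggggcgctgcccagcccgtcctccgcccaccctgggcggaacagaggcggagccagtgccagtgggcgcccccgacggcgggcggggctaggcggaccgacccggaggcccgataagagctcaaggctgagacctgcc
Slc18a2: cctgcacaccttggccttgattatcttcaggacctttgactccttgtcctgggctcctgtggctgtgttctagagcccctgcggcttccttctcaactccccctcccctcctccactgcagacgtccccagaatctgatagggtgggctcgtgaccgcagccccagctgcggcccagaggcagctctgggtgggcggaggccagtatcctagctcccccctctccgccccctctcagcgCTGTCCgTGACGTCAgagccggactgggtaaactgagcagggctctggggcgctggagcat
Tph2: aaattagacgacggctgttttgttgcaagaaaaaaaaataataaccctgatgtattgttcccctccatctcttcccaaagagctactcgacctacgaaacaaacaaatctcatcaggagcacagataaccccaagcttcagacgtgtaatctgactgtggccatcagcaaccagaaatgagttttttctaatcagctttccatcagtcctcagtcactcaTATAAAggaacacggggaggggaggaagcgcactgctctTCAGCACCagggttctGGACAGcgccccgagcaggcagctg

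Both strands of each window were searched for these motifs and for the NBRE, AAAGGTCA, the site of nuclear receptors such as Nr4a2. The cAMP response element began 45 bases before the RefSeq transcript start of Th and 4 bases before that of Slc18a2, and 1.79% of all 32851 windows of the same length held it. In Slc18a2, 1 base separates CTGTCC from the cAMP response element. In Tph2, TATAAA began 30 bases before the start, TCAGCACC 9 bases after it and GGACAG 25 bases after it. The shares of all windows were 13.6% for TATAAA, 1.65% for TCAGCACC and 22.2% for GGACAG. The NBRE was found in 1 window of Ddc and in 1.51% of all windows, and the windows of Chat and Slc18a3 held none of the motifs. A match describes the letters of the window only.

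The question of the comparison was how EAE changed the RNA of these libraries, and EAE was tested against PBS over all tested mRNAs with the quasi-likelihood F test of edgeR, with p values adjusted by Benjamini and Hochberg's method. Of the 10 genes, Th, Slc6a3 and Slc18a3 were lower in EAE mice at an adjusted p under 0.05, and none was higher. Of all tested mRNAs, 315 (1.76%) were lower and 118 (0.66%) were higher by the same rule. When library totals alone were used in place of TMM factors, 103 mRNAs were lower and 226 were higher. The log2FC, the log2 of the fold change of EAE over PBS, was below 0 for 7 of the 10 genes, with a median of −0.37, against 47.3% of all tested mRNAs and a median of 0.01. Some marker lists of other neurons had similar medians, with −0.35 for GABAergic, −0.26 for striatal and −0.41 for hypothalamic neurons. The medians were nearer 0 for the lists of neurons in general (−0.09), glutamatergic neurons (−0.11) and the cerebellum (−0.05). At an unadjusted p under 0.05 from edgeR, 6 of the 10 genes differed, against 17.4% of all tested mRNAs, and Slc18a2 was the only 1 of the 6 with a positive log2FC.

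**Figure D1:**
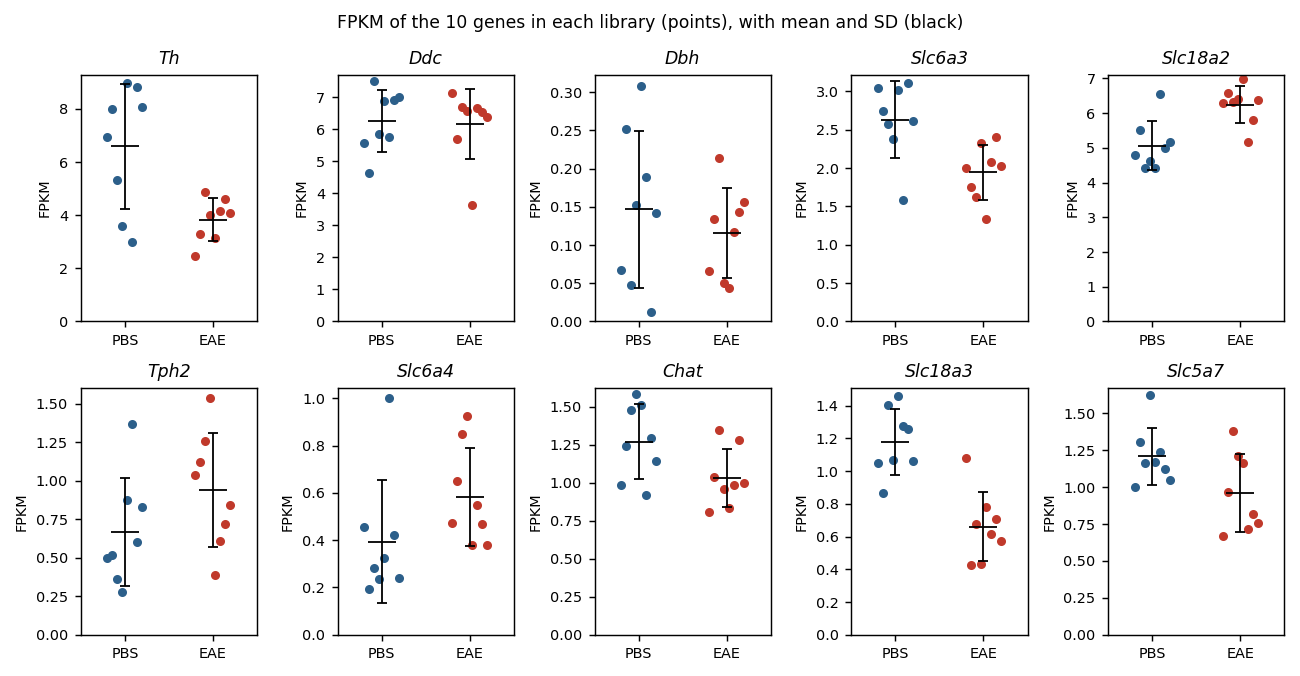
FPKM of each of the 10 genes (y axis, linear, from 0) in the 8 PBS libraries (blue) and the 8 EAE libraries (red); each point is 1 library, and the black marks are the mean and SD. For Slc18a3, 7 of 8 EAE libraries lie below the lowest PBS library, and for Th and Slc6a3, 6 of 8 PBS libraries lie above the highest EAE library.

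The genes differed in level, which is compared here per transcript length, in FPKM. Over all 16 libraries the order of the median FPKM values was Ddc (6.55), Slc18a2 (5.66), Th (4.39), Slc6a3 (2.36), Slc5a7 (1.14), Chat (1.09), Slc18a3 (0.958), Tph2 (0.774), Slc6a4 (0.439) and Dbh (0.138). Th was above Slc6a3, Slc6a3 above Slc5a7 and Tph2 above Slc6a4 in all 16 libraries. Several neighbours overlapped. Ddc was above Slc18a2 in 12 of 16 libraries, Slc18a2 above Th in 10, Slc5a7 above Chat in 7 and Slc18a3 above Tph2 in 10. Ddc, Slc18a2, Th and Slc6a3 thus headed the order, followed by the cholinergic genes, then Tph2 and Slc6a4, and last Dbh. Of the first 4, Ddc, Slc18a2 and Th are also used by other monoaminergic neurons. The order is therefore one of genes, not of transmitter systems.

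Th encodes tyrosine hydroxylase, the rate-limiting enzyme of catecholamine synthesis (GRCm38, chromosome 7, 142892752 to 142931128, minus strand). Its FPKM was 2.47 at the lowest (EAE 1), 4.04 at the median and 4.88 at the highest (EAE 3) in EAE mice. In PBS-treated mice the lowest was 3.0 (PBS 6), the median 7.46 and the highest 8.97 (PBS 5). The groups overlapped through PBS 4 and PBS 6, and the other 6 PBS libraries lay above every EAE library. Th fell by 0.84 on the log2 scale (SE 0.20; edgeR's adjusted p was 0.0296), to 0.560 times the PBS level, and the exact permutation test of FPKM gave p = 0.0107 (two-sided, n = 8 per group). The call was lost when EAE 1, EAE 2, EAE 6, EAE 8, PBS 2, PBS 5, PBS 7 or PBS 8 was left out, with an adjusted p of up to 0.0720 (without PBS 2), and it held without any 1 of the other 8 libraries, down to 0.00819 without PBS 6. The adjusted p was also 0.0508 in edgeR with a replicate block and 0.126 to 0.134 in limma.

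Ddc encodes aromatic L-amino acid decarboxylase, which acts after tyrosine hydroxylase in dopamine synthesis and after tryptophan hydroxylase in serotonin synthesis (chromosome 11, 11814101 to 11898144, minus strand). Its FPKM in EAE mice was 3.64 at the lowest (EAE 5), 6.55 at the median and 7.12 at the highest (EAE 1), and in PBS-treated mice it was 4.62 (PBS 2), 6.37 and 7.52 (PBS 3). The groups overlapped over nearly their whole range. The log2FC was −0.07 (SE 0.12, 95% interval −0.30 to 0.16, adjusted p = 0.802 from edgeR), so that a difference as large as that of Th lay outside the interval, and without EAE 5 it was 0.01. Ddc overlaps 1700042O10Rik on the opposite strand, and the strand setting of the counting is not given in the sources used here.

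Dbh encodes dopamine beta-hydroxylase, which makes noradrenaline from dopamine (chromosome 2, 27165233 to 27183200, plus strand). It had 3 to 12 counts in each EAE library and 1 to 23 in each PBS library. Its FPKM was 0.0435, 0.125 and 0.214 at the lowest, median and highest in EAE mice and 0.0128, 0.147 and 0.308 in PBS-treated mice. The log2FC was −0.40 with a 95% interval of −1.38 to 0.57 (adjusted p = 0.732 from edgeR). At this depth a difference was not detectable for Dbh.

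Slc6a3 encodes the dopamine transporter DAT, which returns dopamine to the terminal (chromosome 13, 73536747 to 73578672, plus strand). In EAE mice its FPKM was 1.34 at the lowest (EAE 5), 2.02 at the median and 2.40 at the highest (EAE 7). In PBS-treated mice it was 1.58 (PBS 6), 2.68 and 3.11 (PBS 7). As for Th, 6 of 8 PBS libraries lay above every EAE library, and all 8 EAE libraries lay below the PBS median. Slc6a3 fell by 0.49 on the log2 scale (SE 0.13; edgeR's adjusted p was 0.0495; exact two-sided permutation p = 0.00886 on FPKM). The adjusted p lay just under the threshold. It stayed under it in 4 of the 16 edgeR fits that left out 1 library, namely without EAE 4, EAE 7, PBS 4 or PBS 6, and rose to up to 0.103 (without EAE 3) in the other 12. It was also over the threshold with library totals alone (0.0751), without a filter on low counts (0.0534), with a replicate block (0.0601) and in limma (0.134 and 0.141).

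Slc18a2 encodes VMAT2, the vesicular transporter shared by dopamine, noradrenaline and serotonin neurons (chromosome 19, 59260896 to 59296012, plus strand, overlapping Gm29261 on the opposite strand). Its FPKM was 5.18 at the lowest (EAE 6), 6.35 at the median and 6.98 at the highest (EAE 5) in EAE mice, and 4.41 (PBS 3), 4.90 and 6.54 (PBS 6) in PBS-treated mice. All 8 EAE libraries were above the PBS median, and 6 PBS libraries were below every EAE library. The log2FC was 0.25 (SE 0.08, adjusted p = 0.0929 from edgeR; exact two-sided permutation p = 0.00373 on FPKM, which is not adjusted for the number of mRNAs). The adjusted p was 0.0255 without PBS 6 and 0.0483 with DESeq2. The log2FC of Slc18a2 was thus positive but did not pass the threshold over all mRNAs.

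Tph2 encodes tryptophan hydroxylase 2, the rate-limiting enzyme of serotonin synthesis in neurons (chromosome 10, 115078641 to 115185022, minus strand). In EAE mice its FPKM was 0.390 (EAE 5), 0.939 and 1.54 (EAE 4) at the lowest, median and highest. In PBS-treated mice it was 0.278 (PBS 4), 0.560 and 1.37 (PBS 6). The groups overlapped, and the log2FC was 0.44 (SE 0.29, adjusted p = 0.462 from edgeR; exact permutation p = 0.152).

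Slc6a4 encodes the serotonin transporter SERT (chromosome 11, 76998603 to 77032340, plus strand, overlapping Gm12343 on the opposite strand). Its FPKM was 0.380 (EAE 8), 0.510 and 0.925 (EAE 4) in EAE mice and 0.194 (PBS 2), 0.303 and 1.00 (PBS 6) in PBS-treated mice. All 8 EAE libraries were above the PBS median, and 5 PBS libraries were below every EAE library, while PBS 6 had the highest value of all 16. The log2FC was 0.52 (SE 0.30, adjusted p = 0.389 from edgeR; exact permutation p = 0.133), and without PBS 6 the adjusted p was 0.0656. For the serotonin genes the intervals of the log2FC reached from −0.13 to 1.01 (Tph2) and from −0.07 to 1.11 (Slc6a4), so that both intervals held 0 and a log2FC of 1.

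Tph2 took different sides of 0 in the libraries on either side of the gap in detected mRNAs. In EAE 1 to 4 and PBS 1 to 4, Tph2 was 1.04 to 1.54 FPKM in EAE mice and 0.278 to 0.519 FPKM in PBS-treated mice, with no overlap. In EAE 5 to 8 and PBS 5 to 8, it was 0.390 to 0.842 FPKM and 0.602 to 1.37 FPKM, respectively. The log2FC was 1.49 (SE 0.29, adjusted p = 0.0788) in the first set and −0.54 (SE 0.31, adjusted p = 0.461) in the second, both from edgeR. The log2FC of Slc6a4 was 1.24 (SE 0.36, adjusted p = 0.192 from edgeR) in the first set and −0.17 (SE 0.40, adjusted p = 0.885 from edgeR) in the second. The second value rested on PBS 6 at 1.00 FPKM, since PBS 5, 7 and 8 were 0.239 to 0.422 FPKM, and the medians there were 0.424 FPKM in EAE mice and 0.373 FPKM in PBS-treated mice. The difference between the sets, tested in 1 edgeR model of all 16 libraries, was −2.05 for Tph2 (SE 0.42, adjusted p = 0.176) and −1.43 for Slc6a4 (SE 0.55, adjusted p = 0.746). Neither passed the threshold, which 3 of 17885 mRNAs (0.0168%) did. This split was chosen after the data were seen.

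Groups that did not overlap were seen within the sets but for none of the 10 genes over all 16 libraries, where 0.263% of tested mRNAs had them. In EAE 1 to 4 and PBS 1 to 4, EAE and PBS did not overlap for Tph2, Slc6a4 and Slc18a2, which were higher, and Slc6a3, which was lower, against 5.34% of all tested mRNAs. In EAE 5 to 8 and PBS 5 to 8, they did not overlap for Slc18a3, against 8.21% of all. Th and Slc18a3 had nearly the same log2FC in both sets, with −0.78 and −0.89 for Th and −0.82 and −0.94 for Slc18a3. With 4 libraries per group, none of the 10 genes had an adjusted p under 0.05 in either set, and with a term for the set in the edgeR model Th, Slc6a3 and Slc18a3 had adjusted p values of 0.0292, 0.0494 and 0.0177.

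**Figure D2:**
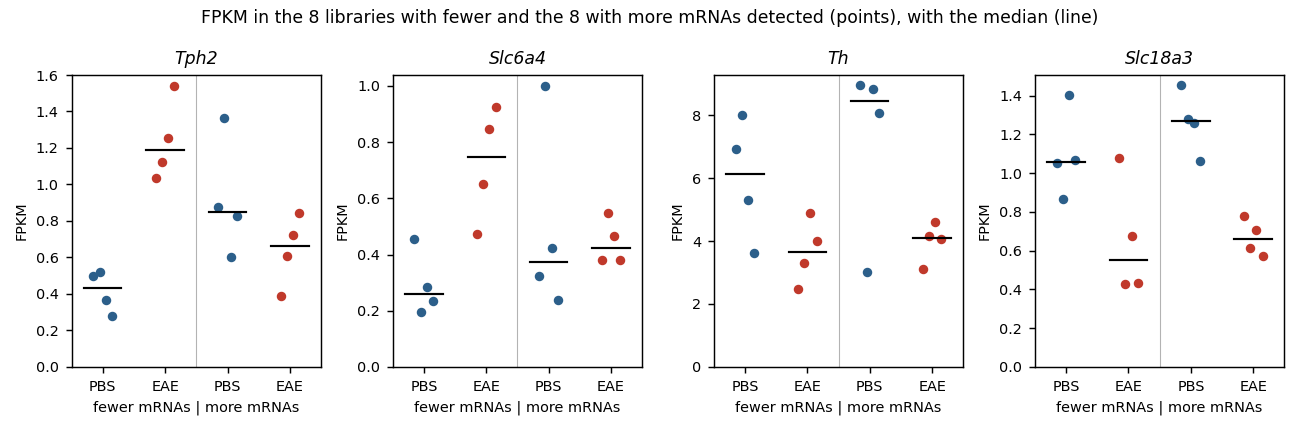
FPKM (y axis, linear, from 0) of Tph2, Slc6a4, Th and Slc18a3 in the 8 libraries with fewer (left of the grey line) and the 8 with more mRNAs detected (right); each point is 1 library, blue for PBS and red for EAE, and black lines are medians. Tph2 is 1.04 to 1.54 FPKM in EAE 1 to 4 and 0.278 to 0.519 FPKM in PBS 1 to 4, and on the right its EAE median of 0.664 FPKM is below the PBS median of 0.851 FPKM.

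The 3 cholinergic genes all had a negative log2FC, and 1 of them was called. Chat encodes choline acetyltransferase, which makes acetylcholine (chromosome 14, 32408203 to 32465989, minus strand). Slc18a3, which encodes the vesicular acetylcholine transporter VAChT, lies inside it on the same strand (32462438 to 32464850). Its single exon is in intron 1 of 4 of the 8 annotated Chat transcripts and overlaps no Chat exon. Reads from unspliced Chat RNA that cover this intron could therefore be counted for Slc18a3 in these libraries of total RNA, and their share was not tested.

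Slc18a3 had the smallest p of the 10 genes. Its FPKM was 0.428 (EAE 2), 0.644 and 1.08 (EAE 1) at the lowest, median and highest in EAE mice. It was 0.866 (PBS 2), 1.16 and 1.46 (PBS 5) in PBS-treated mice. Apart from EAE 1, every EAE library was below every PBS library. Slc18a3 fell by 0.88 on the log2 scale (SE 0.19; edgeR's adjusted p was 0.0169), to 0.543 times the PBS level, and the exact two-sided permutation p was 0.000777, where 0.000155 is the smallest that 8 against 8 allow. The libraries held 27 to 69 counts of it in EAE and 66 to 115 in PBS-treated mice. The call held in all 16 edgeR fits that left out 1 library (adjusted p 0.00934 to 0.0403), in both limma fits and with a replicate block.

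Chat was 0.806 (EAE 1), 0.993 and 1.35 FPKM (EAE 3) at the lowest, median and highest in EAE mice and 0.920 (PBS 6), 1.27 and 1.59 FPKM (PBS 4) in PBS-treated mice. The groups overlapped, and the log2FC was −0.35 (SE 0.15, adjusted p = 0.225 from edgeR; exact two-sided permutation p = 0.0510). Slc5a7 encodes CHT, the high-affinity choline transporter that supplies Chat with its substrate (chromosome 17, 54273590 to 54299034, minus strand). Its FPKM was 0.672 (EAE 1), 0.891 and 1.38 (EAE 3) in EAE mice and 1.00 (PBS 1), 1.17 and 1.63 (PBS 4) in PBS-treated mice. For Slc5a7, 5 EAE libraries lay below every PBS library. The log2FC was −0.39 (SE 0.15, adjusted p = 0.177 from edgeR; exact two-sided permutation p = 0.0491). Both log2FC values were nearer 0 than that of Slc18a3, but the differences between the 3 genes were not tested.

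The calls depended on which libraries were used. In the 6 libraries most alike (EAE 6 to 8 with PBS 5, 7 and 8), 13.1% of 17239 tested mRNAs were lower and 11% were higher, and Th, Slc6a3, Slc18a3 and Slc5a7 were among the lower ones. These 6 libraries were defined by their likeness in the same data. A small spread within groups was thus built in, which raises the number of calls. There Th had a log2FC of −1.04 and Slc18a3 of −1.02. Within the other 10 libraries, 13 mRNAs were called and none of the 10 genes was. Th, Slc6a3 and Slc18a3 had log2FC values of −0.67, −0.52 and −0.80 there, with adjusted p values from edgeR of 0.329, 0.273 and 0.281. Slc18a2 had a log2FC of 0.26 in these 10 libraries (adjusted p = 0.361 from edgeR).

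Markers of microglia and of other cells also differed between the groups. Of the 17 microglia markers, 15 had a positive log2FC and 2 were called higher, the integrin gene Itgam (0.46, adjusted p = 0.00180 from edgeR) and the receptor gene Trem2 (0.56, adjusted p = 0.0282 from edgeR). Their summed FPKM was 243 to 385 in EAE mice and 223 to 357 in PBS-treated mice. Of the 8 astrocyte markers, 6 had a negative log2FC, and the median was −0.17. Gfap, an intermediate filament, was the only marker of that list called, and it was higher (0.50, adjusted p = 0.0312 from edgeR). Of the 14 neuron markers, 12 had a negative log2FC and 1, the synaptic vesicle calcium sensor Syt1, was called lower, and their summed FPKM was 1111 to 1309 in EAE mice and 1229 to 1362 in PBS-treated mice. The 9 striatal neuron markers had a summed FPKM of 195 to 272 in EAE mice and 273 to 323 in PBS-treated mice. Of these markers, 8 had a negative log2FC and 3 were called lower, among them Ppp1r1b and Adora2a. All 6 GABAergic markers had a negative log2FC, and Gad1 and Slc32a1 were called lower. The 9 Hox genes of the hindbrain list summed to at most 0.252 FPKM in any library. Their relation to RNA of the raphe or the locus coeruleus was not tested. All 8 neutrophil markers had a positive log2FC, 4 of them called. The part of these markers in the results on the 10 genes was not tested beyond the following scale.

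When each gene was set against the summed FPKM of the neuron list in the same library, Th was still lower in EAE mice by −0.64 on the log2 scale (exact two-sided permutation p = 0.0233, unadjusted, 1 of 10 such tests). Slc6a3 was lower by −0.35 (exact permutation p = 0.0287) and Slc18a3 by −0.80 (exact permutation p = 0.00109). Slc18a2 was higher by 0.39 (exact permutation p = 0.00124) and Slc6a4 by 0.77 (exact permutation p = 0.0312). Leaving out 1 library kept p under 0.05 for Th, Slc18a2 and Slc18a3. It rose to up to 0.0558 for Slc6a3 without EAE 3, EAE 5, PBS 1, PBS 5 or PBS 7, and to up to 0.0617 for Slc6a4 without EAE 2, EAE 3, EAE 4, PBS 2, PBS 3, PBS 4 or PBS 8 (exact permutation test). The values of Tph2 (0.62), Chat (−0.22), Slc5a7 (−0.29), Ddc (0.04) and Dbh (0.04) had exact permutation p values of 0.0816, 0.121, 0.0923, 0.712 and 0.953. With a term for the level of the neuron list in the edgeR model, 14 mRNAs were called and none of the 10 genes was. In that fit the log2FC of Th was −0.82 (adjusted p = 0.171 from edgeR), that of Slc6a3 −0.37 (adjusted p = 0.306) and that of Slc18a3 −0.83 (adjusted p = 0.146).

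Ratios of 2 genes in the same library do not depend on how libraries are scaled. They were chosen after the values were seen and are given as a description, without a test. Th per Slc18a2 was 0.393 to 0.802 in EAE mice with a median of 0.631, and 0.459 to 2.03 in PBS-treated mice with a median of 1.44. Slc6a3 per Slc18a2 had medians of 0.318 and 0.550, and 7 of 8 PBS libraries, all but PBS 6, were above every EAE library. Slc18a3 per Chat had medians of 0.563 and 0.955, and 6 of 8 EAE libraries, all but EAE 1 (1.34) and EAE 5, were below every PBS library. Slc6a4 per Slc6a3 had medians of 0.274 and 0.109, with PBS 6 at 0.634 as the exception in the PBS group. In each ratio the medians lay apart by more than a factor of 1.5, while 1 or more libraries crossed over.

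**Figure D3:**
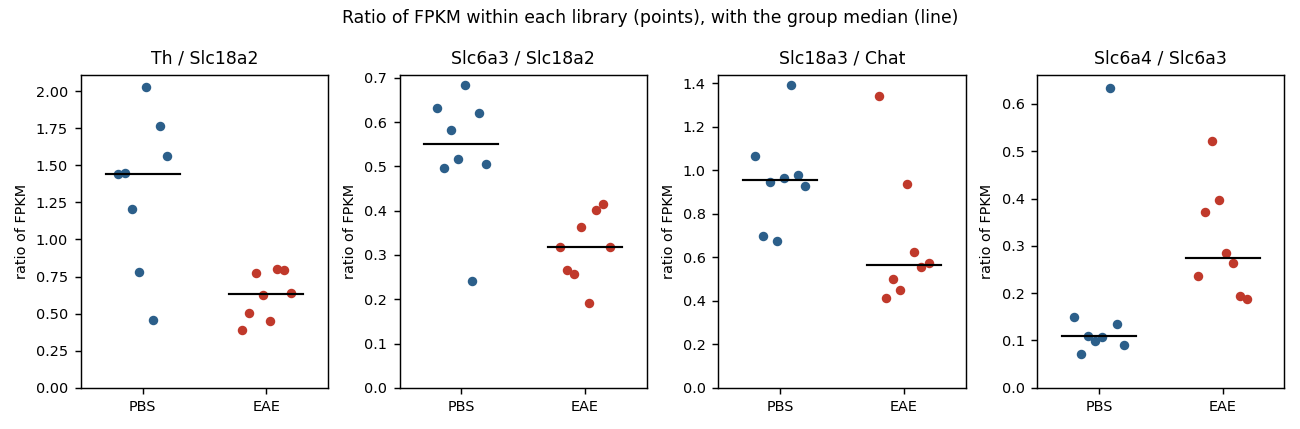
Ratio of the FPKM values of 2 genes in the same library (y axis, linear, from 0) in PBS (blue) and EAE (red); each point is 1 library and black lines are medians. For Slc6a3 per Slc18a2, 7 of 8 PBS libraries lie above every EAE library and PBS 6 lies among the EAE libraries.

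The 10 genes form 45 pairs, whose correlation over the 16 libraries was computed on log2(FPKM + 0.01) with permutation p values, adjusted over the 45 pairs. Th and Slc6a3 rose and fell together (Pearson's r = 0.79, permutation p = 0.00036, adjusted p = 0.0081; Spearman's rho = 0.84, permutation p = 8e-05, adjusted p = 0.0036). Within groups, r was 0.29 among EAE libraries and 0.86 among PBS libraries, and without PBS 5 and PBS 7 it was 0.71. Slc6a3 and Slc18a2 moved in opposite directions (r = −0.80, permutation p = 0.00024, adjusted p = 0.0081; rho = −0.80, permutation p = 0.00039, adjusted p = 0.00877), with r of −0.59 in EAE, −0.71 in PBS and −0.74 without EAE 5 and PBS 6. Tph2 and Slc6a4 went together (r = 0.73, permutation p = 0.00135, adjusted p = 0.0203; rho = 0.73, permutation p = 0.00199, adjusted p = 0.0298), with r of 0.77 in EAE, 0.63 in PBS and 0.66 without PBS 3 and PBS 4.

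These 3 pairs were the only ones of 45 that passed in both correlations, while Slc18a2 and Chat passed in Pearson's r alone (r = −0.70). With the group means removed, r was 0.66, −0.66 and 0.67 for the 3 pairs, with an adjusted p of 0.107 each. In the 8 libraries with fewer and the 8 with more mRNAs detected, r was 0.62 and 0.93 for Th and Slc6a3, −0.71 and −0.89 for Slc6a3 and Slc18a2, and 0.88 and 0.40 for Tph2 and Slc6a4. In the 6 libraries most alike, r was −0.73 for Tph2 and Slc6a4, against 0.88 in the other 10.

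**Figure D4:**
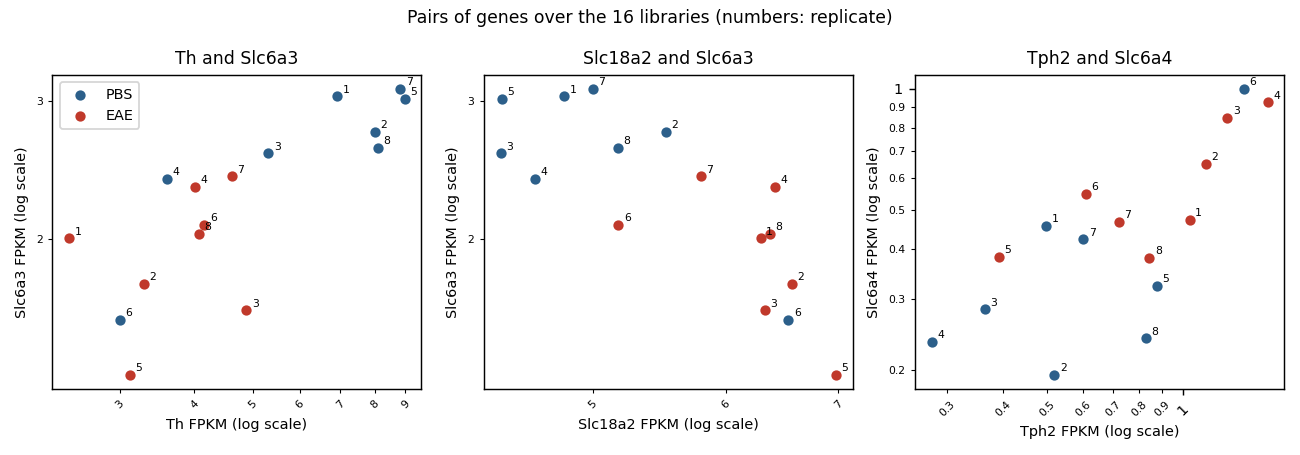
FPKM of Th against Slc6a3, Slc18a2 against Slc6a3 and Tph2 against Slc6a4 (both axes logarithmic); each point is 1 library, blue for PBS and red for EAE, with its replicate number. PBS 6 lies among the EAE libraries in the first and second panels, and r over the 16 libraries is 0.79, −0.80 and 0.73.

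Beyond the 10 genes, 105 genes of the same transmitter systems were counted in 12 lists, covering cofactor synthesis, breakdown, identity factors and receptors. Of these, 100 were tested, 67 had a negative and 33 a positive log2FC, and the median was −0.09. At an adjusted p under 0.05, 3 were lower and none was higher, against 1.76% and 0.66% of all tested mRNAs, and 24 had an unadjusted p under 0.05, against 17.4% of all tested mRNAs. Ret, the receptor tyrosine kinase for GDNF family ligands and a marker of dopamine neurons, was lower by −0.28 (log2FC, SE 0.07, adjusted p = 0.0318 in the edgeR fit), with medians of 2.85 FPKM in EAE and 3.49 FPKM in PBS-treated mice. The log2FC was −0.31 for the adrenoceptor Adra1b (SE 0.08, edgeR adjusted p = 0.0380) and −0.21 for the muscarinic receptor Chrm4 (SE 0.05, edgeR adjusted p = 0.0356). All 3 were smaller changes than those of Th, Slc6a3 and Slc18a3.

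Among the 13 dopaminergic identity factors and markers, 7 were negative and 6 positive. Aldh1a1, an aldehyde dehydrogenase of ventral dopamine neurons, was 26.7 FPKM at the median in EAE and 35.7 FPKM in PBS-treated mice (log2FC −0.38, adjusted p = 0.0819 from edgeR), and Nr4a2, a nuclear receptor required for dopamine neurons, had a log2FC of −0.15 (adjusted p = 0.169 from edgeR). The share of the RNA of Aldh1a1, Nr4a2 and Ret that came from dopamine neurons was not tested. None of the 7 genes listed as serotonergic identity factors and markers was called. Crh was at −0.64 (adjusted p = 0.104 from edgeR), Htr1a at −0.21 and Htr1b at −0.03. Whether the RNA of these genes came from serotonin neurons was not tested. Fev, also in that list, had a mean of 2.56 counts per library. In the 10 genes of the cholinergic list, Isl1, a transcription factor of cholinergic neurons, had a log2FC of 0.32 (adjusted p = 0.279 from edgeR), and Mnx1 was at 0 counts in every library. The low-affinity neurotrophin receptor Ngfr, which marks basal forebrain cholinergic neurons, had a log2FC of −0.05 and was not called. Of the 6 noradrenergic identity factors and markers, 4 were tested and none was called, with Gal, the neuropeptide galanin, at −0.07 and the autoreceptor Adra2a at −0.19. None of the 6 habenular cholinergic markers was called, with Tac2 at −0.06 and Gpr151 at 0.13.

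Of the 7 genes of transmitter breakdown, all had a negative log2FC and none was called. Ache, acetylcholinesterase, had a log2FC of −0.12 (adjusted p = 0.150 from edgeR). The 6 genes of the tetrahydrobiopterin cofactor, which both hydroxylases need, had a median log2FC of −0.05, with Qdpr at 65.7 FPKM in EAE and 71.0 FPKM in PBS-treated mice at the median. Among the dopamine receptors, Drd1 and Drd2, which mark the 2 classes of striatal projection neuron, had log2FC values of −0.11 and −0.26 and were not called. Of the serotonin receptors Htr2c had a log2FC of −0.17 and Htr2b of 0.26, again without a call. Of the 15 acetylcholine receptor genes tested, 12 had a negative log2FC, among them Chrm1 at −0.11 and Chrnb2 at −0.18, and Chrm4 was the one called. The uptake transporter Slc22a3 was at −0.54 and Slc29a4 at −0.05, and neither was called.

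For each gene with a median of at least 20 counts, the tested mRNAs with the most similar FPKM pattern over the 16 libraries were listed by Spearman's rho, as a description. Th was most like Cltc (rho 0.94), Fam20c (0.91) and Os9 (0.91). Slc6a3 was most like AU040320 (0.95), Hspa8 (0.93) and Nedd4 (0.90), and Slc18a2 like Slc14a2 (0.89), Hsf5 (0.88) and Mrpl1 (0.88). Slc18a3 was most like Cplx1 (0.81), Fndc5 (0.80) and 2610507B11Rik (0.79). Chat was most like Tex264 (0.84), Tph2 like Utp3 (0.88), Slc6a4 like Gpr45 (0.86), Slc5a7 like Abcd2 (0.89) and Ddc like Anapc2 (0.86). None of these nearest mRNAs was another of the 10 genes. All of these rho values rest on the same 16 libraries and on the best of 14883 mRNAs each.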

How the data were processed

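Per the labels and the methods, the authors removed ribosomal RNA, built stranded total RNA libraries, aligned the reads to GRCm38 with HISAT2 2.1.0 and counted mRNAs with HTSeq 0.11.2. The authors deposited raw counts per mRNA and FPKM values, and every sample column was used. The strand setting of the counting is not given in the sources used here. Groups came from the sample titles.

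Raw counts were tested with edgeR 4.0.16 (R 4.3.3), using TMM factors, mRNAs with at least 16 counts in total and Benjamini-Hochberg adjustment over all of them, after checks on simulated data. DESeq2 1.42.0, limma 3.58.1 on log2 FPKM, a replicate block, other scalings and filters, and fits without each library were alternatives. Single genes were also compared by an exact permutation test of FPKM over all 12870 divisions (numpy 2.4.6, checked on random values against scipy 1.17.1). Motifs were searched in RefSeq promoters, and positions are from GENCODE M21.

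The 10 genes and the lists were chosen with earlier results of these data known. Named were the 10 genes and, per list, genes with an adjusted p under 0.05, the 2 highest in FPKM, the 2 with the smallest p and, for each of the 10 genes, the 3 most similar mRNAs; of marker lists, the 3 highest and any at 0.

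Some results are not reported here.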

Additional observations from a re-analysis of the deposited data

Results flagged for a closer look

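In 3 of the 20 groups of 8 libraries examined (10 genes in EAE and in PBS), 1 library lay far from the others by Dixon's ratio of its gap to the range, above the 95% critical value for 8 values. Chance gives such a library in about 1 of 20 groups. Ddc was 3.64 FPKM in EAE 5, where the other EAE libraries were 5.69 to 7.12 FPKM. Slc6a3 was 1.58 FPKM in PBS 6, where the other PBS libraries were 2.39 to 3.11 FPKM. Slc6a4 was 1.00 FPKM in PBS 6, where the other PBS libraries were 0.194 to 0.455 FPKM. Without PBS 6, the adjusted p of Slc6a3 from edgeR was 0.0104 and that of Slc6a4 was 0.0656. Without EAE 5, the log2FC of Ddc was 0.01.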

How the results depend on the processing

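The number of mRNAs called was 433 and the number of the 10 genes called was 3. The first was 910 with DESeq2, 745 with the edgeR exact test, 148 and 139 with limma at pseudocounts of 0.1 and 0.01, 768 with a term for the libraries most alike, 4147 in those 6 alone, 13 in the other 10, 14 with a term for the neuron list, and 41 and 16 in the 8 libraries with more and with fewer mRNAs detected. Leaving out 1 library gave 144 to 1317 mRNAs and 1 to 4 of the 10 genes. Of the 10 genes, 1 was called in both limma fits, and 0 in the other 10 libraries, with the neuron term and in either set of 8; Slc18a3 was the one called in limma. With a replicate block 517 mRNAs and 1 of the 10 genes (Slc18a3) were called. The sources used here do not state that equal replicate numbers pair the libraries. The correlation of same-numbered libraries ran from −0.24 to 0.60 and 2 of 8 were most alike to their own number, which cannot decide whether they were paired. Of the 45 pairs of genes, 3 passed in both correlations and 0 with group means removed.

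The sign turned for Ddc (log2FC 0.10 with the neuron term, 0.070 in the 8 libraries with fewer mRNAs detected, −0.12 to 0.010 over the fits without 1 library), Dbh (0.0058 with the neuron term), Tph2 (−0.11 in the 6 libraries most alike, −0.54 in the 8 with more mRNAs detected) and Slc6a4 (−0.17 in the same 8). Relative to the neuron list, it turned for Ddc (−0.033 as FPKM itself, −0.026 to 0.13 over the fits without 1 library) and Dbh (−0.035 as FPKM itself, −0.39 to 0.27 over the fits without 1 library, 7 of them below 0). None of these values passed a test, and the cause was not tested. Dbh had 1 to 23 counts per library.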
